A study of Mus musculus with 4 samples.

Results

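The odorant receptor genes of the chromosome 9 clusters were examined in cells sorted from regenerated mouse olfactory epithelium with and without lamin B1. Members were set by name alone, as the rows whose symbol is Olfr followed by a number from 828 to 984. No expression value entered this rule, although it was chosen with earlier results of these data known. The rule gave 110 genes among the 1100 Olfr genes and the 23337 genes counted. RNA sequencing was performed on 4 libraries, each from Tomato-positive cells of a single mouse of mixed strain. The 2 mutant libraries came from Lmnb1-/- cells and the 2 control libraries from Lmnb1+/- cells. In all 4 mice a keratin 5 promoter drove Cre (K5Cre), so that the floxed exon 2 of Lmnb1 was deleted in horizontal basal cells, the reserve stem cells of this tissue, and the R26Ai9 Tomato reporter marked those cells and their progeny. Each animal was dosed with methimazole at 50 mg/kg, which destroys the epithelium, and regenerated it over 4 weeks. Control 1 and mutant 1 formed experimental group 1, and control 2 and mutant 2 formed experimental group 2. Mice of a group were littermates of the same sex, age and preparation, and the series' design text says that the groups differed in parents, sex, age and treatment, although the dose and recovery time in the labels were the same. Each genotype was therefore represented by 2 mice, and the cells sorted from the mosaic epithelium included stem cells, progenitors, supporting cells and neurons.

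Odorant receptors are G protein-coupled receptors in the cilia of olfactory sensory neurons. A mature neuron transcribes 1 allele of 1 receptor gene and keeps the other receptor genes silent in heterochromatin, so that the level of a receptor in a tissue sample depends largely on how many neurons chose it. Receptor genes lie in clusters in the genome, and choice depends on enhancers bound by the LIM-homeodomain factor Lhx2, its cofactor Ldb1 and the Ebf factors. Since the libraries hold RNA of many cells, fewer neurons expressing a receptor and less receptor RNA per neuron cannot be told apart.

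The gene annotation (GENCODE M21, mm10) placed 108 of the 110 members, all on chromosome 9, and Olfr899 and Olfr900 were not matched. The placed members formed 2 blocks separated by 17.4 Mb. The first block held 30 genes at chr9:18814728-20303599, with 18 on the plus strand, and the second held 78 genes at chr9:37745106-40114206, with 53 on the plus strand. Of the placed members, 105 were annotated as protein coding and 3 (Olfr908, Olfr915 and Olfr936) as polymorphic pseudogenes. Their coding sequences were short and uniform, with a median of 936 bases and a range of 915 to 1012. On chromosome 9 the annotation placed 131 Olfr genes in all, of which 23 had numbers outside the range and were not members.

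Reads were assigned to these genes by sequences that the receptors partly share. Longest reading frames in the annotated transcripts carried the codons of the MAYDRY signature, the stretch at the end of the third membrane helix by which odorant receptors are recognised, in 76 of the 108 placed members. The lines below give 36 coding bases from that signature for 7 of the receptors on which the results turn, with its 6 codons in capitals and the bases that follow in lower case.
Olfr984: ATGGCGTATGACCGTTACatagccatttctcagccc
Olfr913: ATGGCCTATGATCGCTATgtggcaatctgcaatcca
Olfr969: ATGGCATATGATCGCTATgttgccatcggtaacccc
Olfr835: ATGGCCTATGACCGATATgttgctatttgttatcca
Olfr943: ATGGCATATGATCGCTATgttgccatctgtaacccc
Olfr972: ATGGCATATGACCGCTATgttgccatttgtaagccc
Olfr877: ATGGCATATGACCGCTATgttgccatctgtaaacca
Over all 50-base windows of its coding sequence, 55.5% of Olfr955 was shared with another annotated transcript, against 11.3% for Olfr969, 26.4% for Olfr972, 8.04% for Olfr943 and 0% for Olfr984, Olfr913, Olfr835, Olfr868, Olfr873 and Olfr877. At least 1 such window was shared by 78 members, more than 10% of the windows by 43 and more than 50% by 2. Reads that aligned at several places were not counted, so the counts of members with shared windows are uncertain.

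The 250 bases before the annotated start were available from RefSeq (GRCm38.p6) in 93 windows of members. Olfr976 had windows at both chr9:39961045-39961294 and chr9:39957070-39957319. In 63 of the 93 windows, or 67.7%, the annotated start was the ATG of the coding sequence. These windows therefore lie before the coding start and not necessarily before a transcription start. The windows were searched on both strands for TAATTA and TAATGA, homeodomain core motifs of the Lhx2 type, and for CCCNNGGG, the core of Ebf sites. TAATTA occurred in 24.7% of the members' windows, in 17.4% of the windows of other Olfr genes and in 4.84% of those of all genes. TAATGA occurred in 24.7%, 25.7% and 8.59%, and CCCNNGGG in 1.08%, 2.88% and 11.8%. These sets hold unlike windows, since the start was the ATG in 73.5% for other Olfr genes and in 5.83% for all genes. Among windows with the start away from the ATG (30 for the members), TAATTA occurred in 26.7%, 16.7% and 4.425%. In these, TAATGA occurred in 33.3%, 32.1% and 8.19%, and CCCNNGGG in 3.33%, 7.69% and 12.2%. The windows of 3 receptors described below, whose annotated start lay away from the ATG, are given 5′ to 3′ on the gene's strand, with motif matches in capitals (TCATTA is TAATGA on the opposite strand).
Olfr913 (chr9:38592553-38592802, plus strand): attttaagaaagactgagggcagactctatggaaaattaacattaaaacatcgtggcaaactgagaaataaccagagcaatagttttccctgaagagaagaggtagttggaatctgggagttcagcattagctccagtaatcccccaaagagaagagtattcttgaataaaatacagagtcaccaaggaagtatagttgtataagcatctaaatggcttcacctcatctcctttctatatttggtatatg
Olfr868 (chr9:20098376-20098625, plus strand): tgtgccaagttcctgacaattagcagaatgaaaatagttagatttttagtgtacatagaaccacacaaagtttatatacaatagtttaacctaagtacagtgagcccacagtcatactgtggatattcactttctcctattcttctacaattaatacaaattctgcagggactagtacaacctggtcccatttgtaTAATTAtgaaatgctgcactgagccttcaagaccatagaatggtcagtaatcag
Olfr943 (chr9:39166060-39166309, plus strand): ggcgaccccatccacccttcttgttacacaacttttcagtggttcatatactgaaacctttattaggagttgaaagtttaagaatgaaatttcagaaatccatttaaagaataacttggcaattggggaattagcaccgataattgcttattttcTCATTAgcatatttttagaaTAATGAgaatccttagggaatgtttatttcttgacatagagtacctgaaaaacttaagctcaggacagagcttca
The Olfr913 window held none of these letters, the Olfr868 window held TAATTA 54 bases before the start, and the Olfr943 window held TAATGA at 95 and 75 bases before it.

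Gene totals ranged from 14833396 counts in mutant 2 to 23704638 in control 1. Mutant 1 stood apart from the other libraries. Of its uniquely aligned reads, 39.4% fell outside genes against 22.1% to 24.9% in the other 3, and 1603 genes had no count against 5173 to 6053. Counts of 1 or 2 were rare in control 1, where no member had such a count, against 7 members in control 2, 6 in mutant 1 and 15 in mutant 2. Alignments that were not unique numbered 67710764 and 62182762 in group 1 and 10308536 and 6757456 in group 2. The targeted gene Lmnb1 measured 20.1 and 18.5 CPM (counts scaled to 1000000 gene counts of a library) in controls 1 and 2, and 14.7 and 10.04 CPM in mutants 1 and 2. It was lower in both mutants, but its log2 fold change of -0.72 ± 0.31 (SE) did not pass the test (edgeR likelihood-ratio test, adjusted p = 0.19), and gene counts do not separate the deleted exon from the rest of the transcript.

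The receptors of the chromosome 9 clusters were lower in mutant 2 than in its littermate control, whereas mutant 1 differed little from its own. The 990 other Olfr genes, taken as a sum, went the same way, at 0.933 times the control in group 1 and 0.405 times in group 2. Olfr613 alone supplied 9.98% of these other counts in control 1 and 26.9% in mutant 1. In control 2 and mutant 2 it supplied 5.32% and 11.3%. The group 1 ratio of the other genes therefore rests partly on this gene, and ratios without it were not computed. Summed over the 110 members, the level was 151 and 94.7 CPM in controls 1 and 2, and 143 and 39.2 CPM in mutants 1 and 2. These sums came from 3568, 2025, 3172 and 581 counts, in the same order. Mutant 2 was the lowest of the 4 libraries, and mutant 1 lay between the controls, so that the genotypes overlapped. Within group 1 the mutant was at 0.952 times the control (log2 ratio -0.07, 95% interval -0.14 to -0.0023), and within group 2 at 0.414 times (log2 ratio -1.27, interval -1.41 to -1.14). The intervals are exact binomial intervals and cover counting error only. With 1 mouse on each side of a ratio, neither ratio nor their difference was tested. The small log2 ratio of group 1 moved to -0.59 when a background proportional to exon length, estimated from genes silent in the other 3 libraries, was subtracted from mutant 1, to -0.19 with coding length in its place, and to -0.16 with TMM library sizes.

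**Figure D1:**
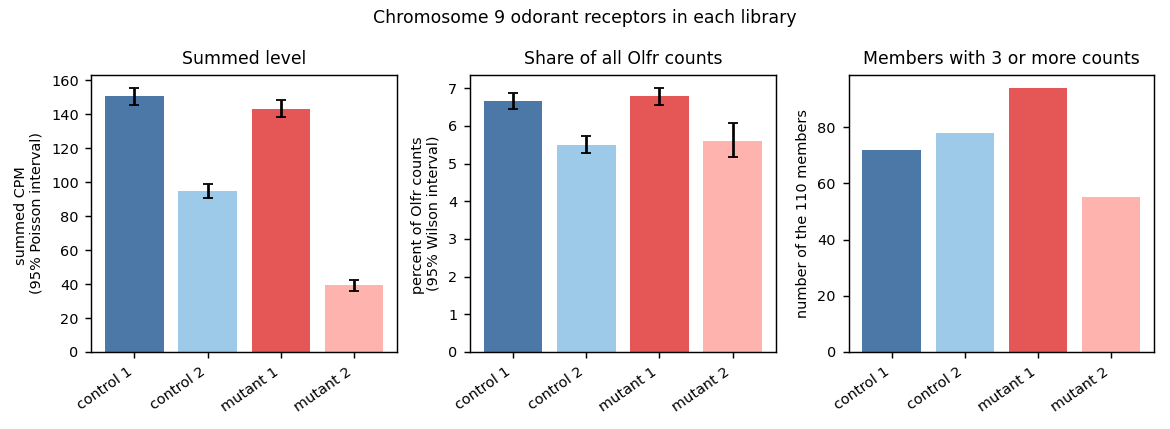
Bars give, for each library, the summed CPM of the 110 receptors with a 95% Poisson interval, their percent of all Olfr counts with a 95% Wilson interval, and the number with at least 3 counts; intervals cover counting error only. Mutant 2 was lowest in summed level (39.2 CPM) and in receptors detected (55), whereas the share of Olfr counts stayed between 5.49% and 6.78%. Olfr613, which is not a member, supplied 25.1% of Olfr counts in mutant 1 and 5.03% to 10.6% in the other libraries.

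The number of receptors detected moved in opposite directions in the groups. With at least 3 counts required, 72 and 78 members were detected in controls 1 and 2, against 94 and 55 in mutants 1 and 2. Mutant 1 detected the most and mutant 2 the fewest, with both controls between them. In group 1 the mutant had 22 more members than the control, with 25 detected only in the mutant and 3 only in the control. In group 2 it had 23 fewer, with 7 detected only in the mutant and 30 only in the control. After thinning every library to the depth of mutant 2, the numbers were 70, 75, 90 and 55. When the silent-gene background was subtracted from mutant 1, the gain in group 1 became a loss of 5 members with the background scaled by exon length (a median of 10.3 counts per member), and stayed a gain, of 15, with it scaled by coding length (3.34 counts per member, chosen after seeing the data). Detection among all 1100 Olfr genes went the same way, at 822 and 859 in the controls, 980 in mutant 1 and 639 in mutant 2.

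As a share of all odorant receptor counts, the chromosome 9 members differed more between experimental groups than between genotypes. They took 6.66% of all Olfr counts in control 1 (Wilson interval 6.45 to 6.87), 5.49% in control 2 (5.27 to 5.73), 6.78% in mutant 1 (6.55 to 7.01) and 5.602% in mutant 2 (5.18 to 6.06). The mean share was 6.08% ± 0.82 (SD, n = 2) in control and 6.19% ± 0.83 (SD, n = 2) in mutant, a difference of 0.11 percentage points (two-sided exact permutation test, p = 0.67). This design of 2 against 2 libraries cannot give a p below 0.33, so that a difference in share could not have been called. The share was higher in the mutant in both littermate pairs, by less than the width of the intervals. Leaving out control 2 or mutant 1, which breaks a pair, gave -0.47 points each. These shares depend on Olfr613, which is not a member. It supplied 9.32% of all Olfr counts in control 1 and 25.1% in mutant 1, and 5.03% and 10.6% in control 2 and mutant 2. Shares without Olfr613 were not computed. The 280 Olfr genes placed on chromosome 2 had summed log2 ratios of -0.43 in group 1 and -1.37 in group 2, and the 235 on chromosome 7 had 0.49 and -1.07, where Olfr613 alone supplied 58.7% of the chromosome 7 counts in mutant 1.

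Gene by gene, most members were lower in mutant 2 and a minority were lower in mutant 1. In group 2, CPM was lower in the mutant for 73 members, higher for 20 and 0 in both libraries for 17. In group 1 it was lower for 40, higher for 60 and 0 in both for 10. Across both groups, 34 members were lower in both mutants, 13 were higher in both, 37 were higher in mutant 1 and lower in mutant 2, and 5 went the other way. The median log2 ratio over all members, with a prior count of 2 added before logs, was 0.30 in group 1 and -0.72 in group 2. Among the 40 members that passed the filter for testing, it was -0.21 in group 1 and -1.12 in group 2, beside 0.06 and 0.02 over all genes tested. Members without counts in a control weigh on the first of these medians: 17 members had no count in either control, and 10 of those had counts in mutant 1, 8 of them at least 3.

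**Figure D2:**
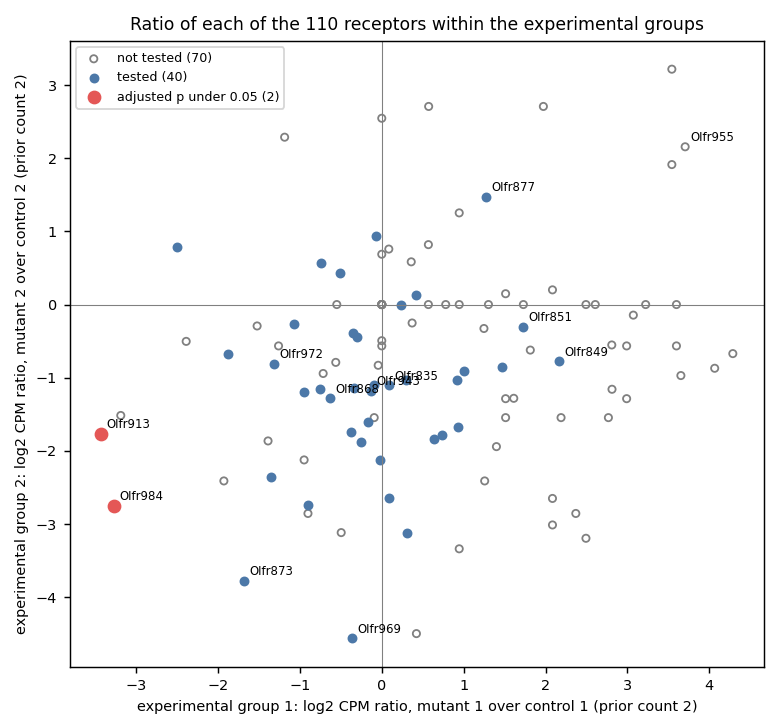
Each point is 1 of the 110 receptors, with the log2 CPM ratio of mutant over control in experimental group 1 on the horizontal axis and in group 2 on the vertical axis, both with a prior count of 2. Filled points passed the filter for testing, large points had an adjusted p below 0.05; 34 receptors lie lower in both groups, and 37 lie higher in group 1 and lower in group 2.

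The genotype comparison was tested over all genes with more than 1 CPM in at least 2 libraries, with experimental group in the model. Of the 110 members 40 passed this filter, 70 did not, and 64 of those 70 had at least 1 count. In 18 of the untested members mutant 1 was the sole library above 1 CPM. In the edgeR likelihood-ratio test 2 of the 40 were lower in the mutants, beside 4.3% of the 15438 genes tested, and none was higher, beside 1.28%. No member was higher at an unadjusted p under 0.05 in the likelihood-ratio test, in edgeR's quasi-likelihood test or in DESeq2. Fitted log2 fold changes were negative for 32 of the 40 tested members and positive for 8. Their median was -0.76 (quartiles -1.24 and -0.16), beside -0.01 over all genes (quartiles -0.26 and 0.25) and -0.97 over the 449 other Olfr genes tested, of which 32 were lower and 0 higher. The members' median was -1.98 without mutant 1 and 0.20 without mutant 2. In these fits 1 mutant is set against both controls and the littermate pairs are broken. Within the pairs the median ratio of the 40 tested members was negative in both groups, as given above. Over all 110 members it was 0.30 in group 1. Both mutants lay below both controls in CPM for 7 of the 40 tested members (10.6% of all genes tested did so), and above both controls for 1 (15.2% of all genes tested). The filter counts for these numbers, since 2 of the tested members passed it through both controls alone, 1 through both mutants alone and 15 through the libraries of group 1 alone.

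Olfr984, a protein-coding gene at the far end of the second block (chr9:40096515-40114206, minus strand), had the smallest p of the members. Its controls held 154 and 109 counts and its mutants 13 and 10, or 6.497, 5.10, 0.587 and 0.674 CPM. Both controls lay far above both mutants. It was 11.1-fold lower in mutant 1 and 7.56-fold lower in mutant 2 than in the littermate control, with a fitted log2 fold change of -3.25 ± 0.72 (SE, edgeR likelihood-ratio test, adjusted p = 0.0011). Olfr984 exceeded 1 CPM in the controls alone, and so passed the filter through them. The call held in the quasi-likelihood test (adjusted p = 0.034) and ended without experimental group in the model (adjusted p = 0.18 with no replicate block) or without either mutant, and without either control the gene no longer passed the filter. DESeq2 gave no adjusted p for any of the 40 members, its filter on mean counts having left them out.

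Olfr913, also in the second block (chr9:38592759-38596283, plus strand), was the other member called. The controls held 57 and 108 counts and the mutants 3 and 21, or 2.40, 5.05, 0.135 and 1.42 CPM. The groups did not overlap, though the ratio between the mutants was wider than that between the controls. The fold change was -2.84 ± 0.88 on the log2 scale (SE, edgeR likelihood-ratio test, adjusted p = 0.044), and the quasi-likelihood test did not call it (adjusted p = 0.14). It was also lost with no replicate block, and with any 1 library left out, where the adjusted p ranged from 0.79 to 0.9999.

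Olfr873 and Olfr969 came next in the order of p and did not pass. Olfr873, the last gene of the first block (chr9:20298532-20303599), had 84 and 66 counts in the controls and 23 and 2 in the mutants, a log2 fold change of -2.93 ± 0.94 (SE, edgeR likelihood-ratio test, adjusted p = 0.062). Both mutants lay below both controls. Olfr969 (chr9:39790945-39796635) was the most abundant member on average, at 12.3 CPM per coding kilobase, and held 15.1% of all member counts in control 1. It had 538 and 389 counts in control 1 and mutant 1, the libraries of group 1, and 115 and 2 in those of group 2. Mutant 1 lay above control 2, so that the groups overlapped, and the fitted log2 fold change of -2.23 ± 0.66 (SE, edgeR likelihood-ratio test, adjusted p = 0.065) came mostly from the littermates of group 2, where the log2 ratio was -5.32 against -0.37 in group 1. Without mutant 1 it was called (edgeR, log2 fold change -6.67, adjusted p = 0.0098), and without control 1 or mutant 2 its sign turned (0.66 and 0.27).

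**Figure D3:**
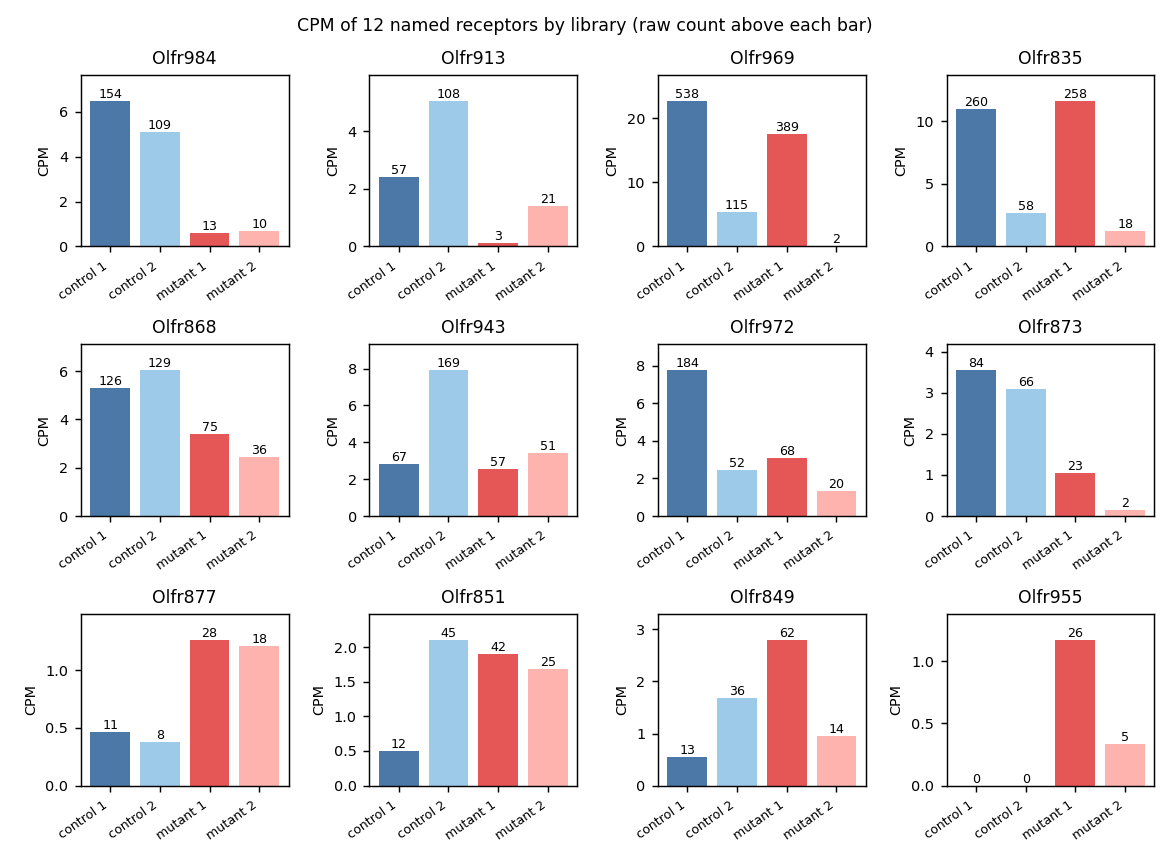
Bars give the CPM of 12 receptors in each library on a linear axis that starts at 0 in each panel, and the number above a bar is its raw count. Olfr984, Olfr913, Olfr868 and Olfr873 are lower in both mutants than in both controls, Olfr877 is higher in both, and Olfr969 and Olfr835 are high in both libraries of group 1.

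The other abundant members were led by different mice. Olfr835 (chr9:19032735-19037670), at a mean of 7.11 CPM per coding kilobase, had 260 and 258 counts in control 1 and mutant 1 but 58 and 18 in control 2 and mutant 2, so that its level followed experimental group more than genotype. Olfr868 (chr9:20098626-20104754), at 4.63 CPM per coding kilobase, had 126, 129, 75 and 36 counts, and both mutants lay below both controls. Olfr943 (chr9:39166304-39192350), at 4.44, had 67, 169, 57 and 51 counts, with control 2 above the other libraries, and antisense annotation overlapped its exons. Olfr972 (chr9:39866422-39874651), at 3.88, had 184, 52, 68 and 20 counts, with control 1 highest. None of these 4 passed the test. Their log2 fold changes in edgeR's likelihood-ratio test were -0.52 (adjusted p = 0.73), -1.03 (0.42), -0.73 (0.66) and -1.17 (0.39), again in the order named. With Olfr969 and Olfr984 they are the 6 members of highest mean level, and together they held 37.2% and 31.2% of member counts in controls 1 and 2, and 27.1% and 23.6% in mutants 1 and 2. Below Olfr835 the means lay between 3.41 and 4.63 CPM per coding kilobase, closer together than the libraries of any of these genes.

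At the other end, no receptor of the clusters rose by the test. The highest fitted change was that of Olfr877 (chr9:37854269-37857320), with 11 and 8 counts in the controls and 28 and 18 in the mutants. Both mutants lay above both controls, and it passed the filter through the mutants alone, where the fitted log2 fold change was 1.499 ± 1.24 (SE, edgeR likelihood-ratio test, adjusted p = 0.65). Olfr851 and Olfr849, both of the first block, followed, at 0.71 and 0.70 (adjusted p = 0.85 and 0.87). Olfr851 had 12 and 45 counts in the controls and 42 and 25 in the mutants, and Olfr849 had 13 and 36 against 62 and 14. Both were higher in mutant 1 and lower in mutant 2 than in the littermate control. Olfr955 had no count in either control, 26 counts in mutant 1 and 5 in mutant 2. Against a floor of 3 counts set for the controls, Olfr955 was 9.28-fold higher in mutant 1 and 2.40-fold higher in mutant 2. These folds leave out counting error in the mutants. With it, the exact binomial intervals of the log2 ratio began at 2.81 in group 1 and 0.40 in group 2. Olfr955 was named for having the most counts in mutant 1 among members without counts in either control. It was not tested, and most of its sequence windows are shared, as shown above. Mutant 1 also had counts in many genes silent elsewhere. The remaining 29 tested members ranged from -2.14 to 0.45 in log2 fold change, 24 of them negative, and their smallest adjusted p was 0.18.

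Both blocks had low sums in mutant 2. The first block summed to 37.5 and 32.0 CPM in controls 1 and 2 and to 41.0 and 11.9 CPM in mutants 1 and 2, and the second, in the same order, to 113, 62.7, 102 and 27.2 CPM. Mutant 2 was lowest of the 4 libraries in each. The log2 ratio of the first block was 0.13 in group 1 (interval -0.0064 to 0.26) and -1.42 in group 2 (-1.67 to -1.18), and that of the second -0.14 (-0.23 to -0.06) and -1.20 (-1.37 to -1.04). The first block took 24.9%, 33.8%, 28.7% and 30.5% of member counts in the same libraries, with means of 29.4% and 29.6% in control and mutant (two-sided exact permutation test, p = 1, and 1 after adjustment over both share tests). This test ignores the littermate pairs and cannot give a p below 0.33, so that a shift could not have been called. Within the pairs the block's share was higher in the mutant in group 1 and lower in group 2. Of 13 tested genes in the first block 10 had a negative log2 fold change, with a median of -0.69 and none called, and of 27 in the second block 22 did, with a median of -0.79 and 2 called. Neighbouring genes along the blocks often differed in direction within a library pair, as the plot in gene order shows.

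**Figure D4:**
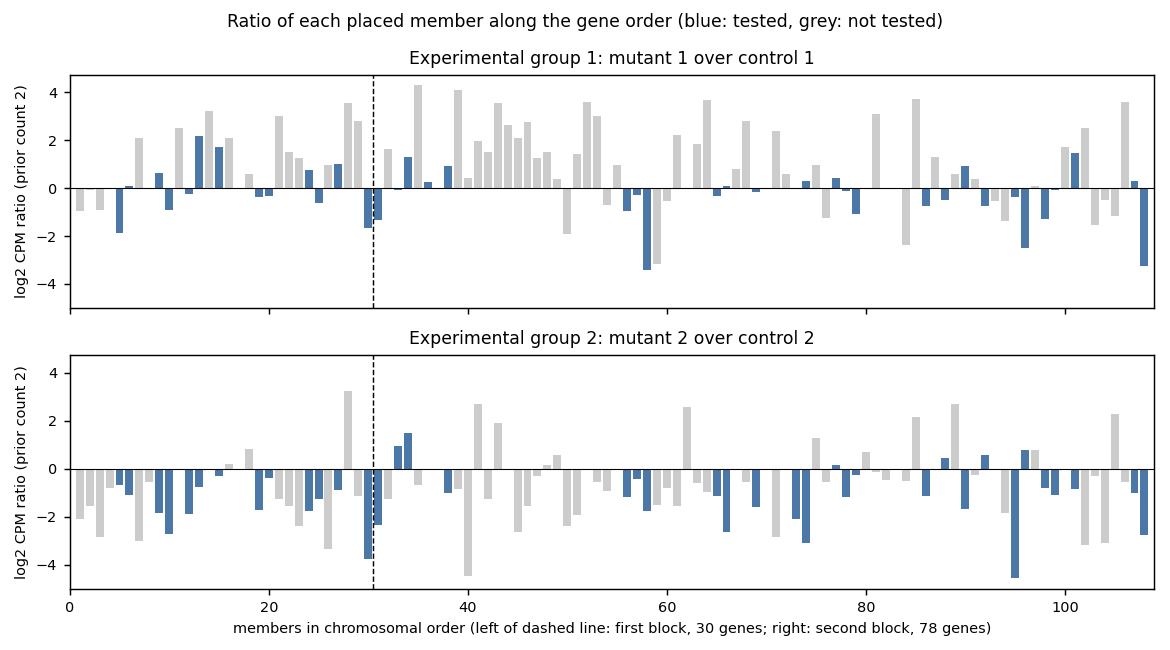
Bars give the log2 CPM ratio of mutant over control (prior count 2) for the 108 placed receptors in their order along chromosome 9, with experimental group 1 above and group 2 below; the dashed line separates the 30 genes of the first block from the 78 of the second. Blue bars passed the filter for testing and grey bars did not; Olfr984, the last bar, is low in both groups.

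As a description, the levels of the 110 members were moderately alike between mice, with Spearman coefficients across genes of 0.60 between the controls, 0.45 between the mutants, 0.60 within group 1 and 0.54 within group 2. These genes share libraries and depth, and are not independent replicates.

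Genes of olfactory signalling were lower as well. The gene lists were chosen with earlier results of these data known. The paper reported members of the olfactory transduction cascade as downregulated in the same libraries. It also reported some odorant receptors as downregulated, and judged most receptors too variable between samples for a conclusion. Omp, the olfactory marker protein of mature neurons, measured 9434 and 3207 CPM in the controls and 5580 and 907 CPM in the mutants, and its log2 fold change was -1.35 ± 0.35 (SE, edgeR likelihood-ratio test, adjusted p = 0.0071). For each 1000 CPM of Omp, the members summed to 15.96 and 29.5 CPM in the controls and 25.7 and 43.2 CPM in the mutants, higher in each mutant than in its littermate control. The same held for all Olfr genes, Olfr613 included, at 240 and 537 CPM in the controls and 379 and 771 CPM in the mutants. Among the 14 genes of olfactory transduction, 12 were lower and 0 higher, with a median log2 fold change of -1.22. They included Adcy3, the cyclase that makes the second messenger (-1.29, edgeR adjusted p = 0.00058), Gnal, the G protein alpha subunit that receptors activate (-1.35, 0.0018), and Cnga2, a subunit of the cyclic nucleotide-gated channel (-1.29, 0.00056). Of the 6 receptor trafficking genes 3 were lower and 1 higher. Rtp1 and Rtp2, chaperones that carry receptors to the membrane, fell by 1.10 and 1.08 on the log2 scale (edgeR adjusted p = 0.0017 and 0.0034), and Rtp4, a relative also known as an interferon-induced gene, rose by 1.79 (0.0045). DESeq2 called 3 of the 6 lower and 0 higher, with no adjusted p for 2 of them, and 0 were called with no replicate block. Of the 19 genes of receptor choice and feedback 3 were lower, namely Ebf4, Ddit3 and Eif2ak3, and 0 higher, with a median of -0.07. These 3 lower calls were 2 in the quasi-likelihood test, 1 without the filter, 1 without TMM factors and 0 with no replicate block. Lhx2 (-0.28, adjusted p = 0.55), Ldb1 (0.16, 0.78) and Ebf1 (-0.37, 0.26) did not pass edgeR's test. The calls of Omp, Adcy3, Gnal, Cnga2, Rtp1 and Rtp2 ended with no replicate block, without the filter and with any 1 library left out, and DESeq2 did not call Omp (adjusted p = 0.067) or Gnal (0.10). The 12 transduction genes were 9 in DESeq2, 7 without the filter and 0 with no replicate block, where no gene of the 15438 was called lower, and 0 with any 1 library left out.

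Markers of the cell types in the sort moved as follows, and their part in the receptor values was not tested. All 10 markers of mature neurons were lower, with summed levels of 17137 and 7517 CPM in the controls and 10078 and 2208 CPM in the mutants, and 5 of the 10 were called in DESeq2, 4 without the filter, 0 with no replicate block and 0 with any 1 library left out. Of 6 markers of immature neurons 2 were lower and 0 higher, and Gap43 had a log2 fold change of -0.35 (edgeR adjusted p = 0.35). Sustentacular markers summed to 4807 and 7945 CPM in the controls and 6807 and 11684 CPM in the mutants. Horizontal basal markers summed to 1814 and 1208 CPM and to 2659 and 1606 CPM. In the likelihood-ratio test 0 of 4 were called in each list, whereas DESeq2 called 3 of 4 higher in each. The quasi-likelihood test called 1 sustentacular and 0 horizontal basal markers higher, and with no replicate block 0 were called in either list. All 3 ciliated cell markers were lower, with 0 called with no replicate block or with any 1 library left out. Leukocyte markers summed to 613 and 778 CPM in the controls and 348 and 818 CPM in the mutants, with 0 of 8 called and Cd52 at 0 in control 2. Of 4 ensheathing glia markers 1, Fabp7, was lower, and the summed levels were 107, 62.3, 52.0 and 48.3 CPM. No defining marker other than Cd52 was at 0 in any library.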

How the data were processed

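The deposited values were raw read counts per gene symbol, which the authors made with HTSeq after removing ribosomal reads with Bowtie2 2.0.6 and aligning with TopHat2 2.0.7 to mm10. Strandedness of the counting was not given in the sources used here. The 5 tally lines were left out. Genes above 1 CPM in at least 2 libraries were tested with edgeR 4.0.16 (R 4.3.3) by the likelihood-ratio test on genotype plus experimental group, as in the study's methods (whose printed code kept the tally lines, an alternative here), with TMM factors and Benjamini-Hochberg adjustment at 0.05. The replicate number marks littermates, so the block pairs the samples, and their deviations from the genotype means correlated at 0.64 over 15438 genes. Standard errors are Wald errors. The quasi-likelihood test, DESeq2 1.42.0 and the alternatives of the closing section were also run, and the fits were tested on simulated data. Library totals of 14833396 to 23704638 set the precision. Intervals are 95% and cover counting error only, and ratios within a group use a prior count of 2 where stated. Named receptors were all called members, the 6 of highest mean CPM, the 3 largest fitted changes each way and the most counted in mutant 1 of those at 0 in both controls; named genes outside the clusters were a panel and list members. The members and gene lists were chosen with earlier results of these data known. Symbols were matched to GENCODE M21 for 98.0% of genes.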

Additional observations from a re-analysis of the deposited data

Results flagged for a closer look

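Some values went in opposite directions in the 2 experimental groups, and the difference was not tested, since each group holds 1 mutant and 1 control. The number of members with at least 3 counts changed by 22 in group 1 and by -23 in group 2. The summed log2 ratio of the first block was 0.13 in group 1 and -1.42 in group 2. Olfr835 had log2 CPM ratios of 0.087 and -1.16, Olfr851 of 1.91 and -0.32, and Olfr849 of 2.35 and -0.83.

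Outside the genes, 39.4% of the uniquely aligned reads of mutant 1 were found, more than the 23.8% and 24.9% in the controls. These reads are in the tally lines, which entered no main comparison and were kept only in an alternative.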

How the results depend on the processing

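The 2 lower calls were 1 with the quasi-likelihood test, 0 with no replicate block, 0 with CPM above 1 in all 4 libraries, 1 without the filter, 1 with tally lines kept, and 0 to 1 when a library was left out. They were 1 without TMM factors and 1 with the background subtracted by coding length, both alternatives chosen after seeing the data. The count was 2 with RLE size factors, after thinning and after background subtraction by exon length, where the receptors beside Olfr984 were Olfr913, Olfr969 and Olfr873. DESeq2 gave no adjusted p for members. The count of higher members was 0 throughout. The median of -0.76 was -0.11 without the filter, which then tested 104 members, and ran from -1.98 without mutant 1 to 0.20 without mutant 2; in that fit with 1 mutant, the lone library is assumed to vary like the other genotype. The summed ratio of group 1 was -0.16 with TMM sizes, -0.17 with tally lines kept, -0.59 with the background subtracted and -0.19 by coding length; that of group 2 kept its value within counting error. Detection in group 1 changed by 12 at 10 counts and by -5 with the background subtracted (15 by coding length), and in group 2 by -15 at 1 count. The difference in share was -0.31 with the background subtracted (0.014 by coding length) and ran from -0.47 to 0.70 when a library was left out, with -0.47 without control 2 and -0.47 without mutant 1. Of single receptors, Olfr969 ran from -6.67 to 0.66 when a library was left out (0.66 without control 1, 0.27 without mutant 2), Olfr835 from -2.53 to 1.19 (1.19 without control 1, 0.72 without mutant 2) and at 0.086 in group 1 alone, Olfr943 from -1.44 to 0.072 (without control 2), and Olfr851 from -0.27 (without control 1) to 1.79; in group 2 alone Olfr851 was at -0.30 and Olfr849 at -0.77. Beyond what each setting's own construction shows (fewer genes or samples tested), the cause was not tested. Low counts limit all members: the median SE was 1.05 on the log2 scale.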
